A study of Mus musculus with 29 samples.

Results

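The nuclear-encoded subunits of the respiratory chain were followed through 29 TRAP-RNAseq libraries of mouse brain. Members were the rows of the count table whose gene symbol starts with Nduf, Uqcr, Atp5, Cox4, Cox5, Cox6, Cox7 or Cox8, together with Sdha, Sdhb, Sdhc, Sdhd, Cyc1 and Cycs, after 1 row with -ps in its symbol was dropped. Of the 94 rows found, 91 exceeded 20 counts throughout some group of libraries and 3 did not (Cox7b2, Cox8c and Atp5l2). The 91 stood among 14132 genes that passed the same filter, out of 36172 rows in all. They comprised 36 genes of complex I, 6 complex I assembly factors (Ndufaf), 4 genes of complex II, 9 of complex III, cytochrome c (Cycs), 18 of complex IV, 15 of complex V, and Atp5s and Atp5sl, which are not subunits of the enzyme despite their names. The filter was passed in all 6 groups by 85 members and in some groups only by 6.

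NuTRAP mice carry a floxed cassette that, after Cre recombination, yields the EGFP-tagged ribosomal protein L10a. In Aldh1l1-NuTRAP mice (genotype Aldh1l1-Cre/Ert2+; NuTRAP+) the inducible Cre is driven by the astrocyte promoter Aldh1l1, and in Cx3cr1-NuTRAP mice (Cx3cr1-Cre/Ert2+; NuTRAP+) by that of Cx3cr1, which in brain is active in microglia and other macrophages. All mice of both lines had been given tamoxifen at about 3 months of age on 5 consecutive days, and both sexes were used in the study, while the labels do not give the sex of each mouse. From each brain, the cleared homogenate was the input, RNA on anti-GFP beads the positive fraction and unbound RNA the negative fraction. Aldh1l1-NuTRAP mice 290, 293 and 294 gave 3 negative and 3 positive libraries. Cx3cr1-NuTRAP mice 155, 192, 194, 209, 210 and 277 gave 6 libraries each of input, unbound and bound RNA, and all of them but mouse 155 also gave whole tissue, extracted conventionally (n = 5) and titled Slice in the labels. For Aldh1l1-NuTRAP mice no input or whole tissue was analysed here, and in comparisons between the lines the line cannot be told apart from anything else that all mice of a line share.

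The respiratory chain sits in the inner mitochondrial membrane. Complex I (NADH dehydrogenase) and complex II (succinate dehydrogenase, which is also an enzyme of the Krebs cycle) pass electrons to ubiquinone, complex III passes them to cytochrome c, and complex IV (cytochrome c oxidase) passes them to oxygen, while complex V uses the proton gradient to make ATP. All these enzymes except complex II mix nuclear-encoded subunits with a few encoded by mitochondrial DNA, which are not members here. Several subunits of complex IV come as pairs of paralogs, of which one is used in most tissues and the other mainly in heart and skeletal muscle (Cox6a2, Cox7a1, Cox8b), in lung and vessel walls (Cox4i2) or in testis (Cox6b2). In brain, neurons are known for a high respiratory demand and astrocytes for a large share of glycolysis, although astrocytes also respire.

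Transcription of many of these genes is known to involve nuclear respiratory factor 1 (encoded by Nrf1), so the members' start sites are shown with the 8 core letters of its motif, CGCATGCG, in capitals. The motif reads the same on both strands and was searched from 250 bases before to 50 bases after each RefSeq start (build GRCm38.p6). It was present in 12 of the 75 members with a promoter entry (16.0%), against 435 of 11161 genes that passed the filter (3.9%) and 559 of 27025 genes in all (2.07%). The 12 were Atp5g2, Atp5j, Atp5k, Atp5l, Cox6a1, Cycs, Ndufa11, Ndufa8, Ndufaf4, Ndufaf5, Uqcr11 and Uqcrc1. Shown are 1 member each of complexes III, IV and V with the motif, cytochrome c, and both muscle-type paralogs of complex IV that have an entry and that the later results turn on, in which these letters are not found. The windows are chr6:50566520-50566819 (minus strand) for Cycs, chr5:115348909-115349208 (minus) for Cox6a1, chr9:108936398-108936697 (plus) for Uqcrc1, chr15:102670998-102671297 (minus) for Atp5g2, chr7:30183921-30184220 (plus) for Cox7a1 and chr7:140900397-140900696 (minus) for Cox8b.
Cycs: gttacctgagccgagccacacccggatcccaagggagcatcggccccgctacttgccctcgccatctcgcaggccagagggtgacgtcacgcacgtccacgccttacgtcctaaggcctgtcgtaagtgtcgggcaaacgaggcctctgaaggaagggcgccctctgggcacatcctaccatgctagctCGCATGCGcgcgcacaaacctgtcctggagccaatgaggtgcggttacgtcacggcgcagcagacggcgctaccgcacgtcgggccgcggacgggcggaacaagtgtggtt
Uqcrc1: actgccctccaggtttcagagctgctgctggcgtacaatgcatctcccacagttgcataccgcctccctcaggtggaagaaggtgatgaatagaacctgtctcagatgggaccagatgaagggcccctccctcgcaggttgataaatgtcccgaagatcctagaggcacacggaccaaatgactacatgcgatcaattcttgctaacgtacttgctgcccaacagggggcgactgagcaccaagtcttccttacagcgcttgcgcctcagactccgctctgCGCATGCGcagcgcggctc
Cox6a1: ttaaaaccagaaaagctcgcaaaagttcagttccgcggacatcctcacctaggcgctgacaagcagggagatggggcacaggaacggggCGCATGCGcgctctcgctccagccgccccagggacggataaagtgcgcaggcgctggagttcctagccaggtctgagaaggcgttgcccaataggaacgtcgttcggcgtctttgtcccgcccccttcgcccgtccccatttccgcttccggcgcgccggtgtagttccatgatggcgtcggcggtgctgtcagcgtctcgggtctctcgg
Atp5g2: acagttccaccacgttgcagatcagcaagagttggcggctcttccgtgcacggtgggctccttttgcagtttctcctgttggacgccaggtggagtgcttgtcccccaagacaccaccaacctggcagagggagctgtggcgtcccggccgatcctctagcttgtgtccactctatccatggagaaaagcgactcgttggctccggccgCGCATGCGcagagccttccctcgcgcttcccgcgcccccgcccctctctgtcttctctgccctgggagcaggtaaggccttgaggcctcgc
Cox7a1: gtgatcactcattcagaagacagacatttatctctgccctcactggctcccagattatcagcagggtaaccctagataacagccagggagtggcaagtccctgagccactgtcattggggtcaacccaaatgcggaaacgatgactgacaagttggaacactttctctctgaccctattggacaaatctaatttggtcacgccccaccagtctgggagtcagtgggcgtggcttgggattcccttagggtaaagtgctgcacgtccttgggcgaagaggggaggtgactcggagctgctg
Cox8b: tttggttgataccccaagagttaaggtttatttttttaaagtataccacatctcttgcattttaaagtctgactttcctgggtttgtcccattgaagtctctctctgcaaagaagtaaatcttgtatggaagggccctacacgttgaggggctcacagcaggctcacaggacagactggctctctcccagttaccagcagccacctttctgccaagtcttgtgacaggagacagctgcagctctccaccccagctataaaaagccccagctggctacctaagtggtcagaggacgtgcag

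Total counts per library were 8782075 to 25137842 in the Aldh1l1-NuTRAP negative fraction, 11910720 to 22308906 in its positive fraction, 18095544 to 26857890 in Cx3cr1-NuTRAP input, 18297372 to 24999067 in its negative fraction, 15486534 to 19831159 in its positive fraction and 4260795 to 25026591 in whole tissue. The lowest were both fractions of mouse 290 and the whole tissue of mouse 210. Labels were checked by marker lists: all 8 astrocyte markers were higher, and all 8 microglial and all 8 neuronal markers lower, in the Aldh1l1-NuTRAP positive against the negative fraction, as were 5 of 6 oligodendrocyte and 5 of 5 erythrocyte markers. All 8 microglial markers were higher in the Cx3cr1-NuTRAP positive fraction against input, with 5 of 8 astrocyte and 6 of 6 oligodendrocyte markers lower. The 8 neuronal markers were not set apart there, with sums of 5488 to 7866 scaled CPM in the positive fraction and 7031 to 7611 in input. The 5 choroid plexus markers were all higher in the Aldh1l1-NuTRAP positive fraction, with summed scaled CPM of 3751 to 4612 against 479 to 622 in the negative fraction, and 2 of 3 ependymal markers were higher with them (71.4 to 119 against 21.5 to 35.9). Of the other lists, 0 of 5 endothelial markers were called there, 2 of 5 mural markers were higher and 1 lower, and 1 of 1 striated muscle marker was lower. The part of these cells in the results was not tested.

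Levels below are counts relative to the library total (CPM), scaled by the TMM method of edgeR (scaled CPM), and their sum over a complex is given as a description without a test. Summed over all members, the Aldh1l1-NuTRAP positive fraction held 38898, 18991 and 20906 scaled CPM in mice 290, 293 and 294, and the negative fraction held 20416, 12031 and 12047. The positive fraction was the higher in each of the 3 mice. In Cx3cr1-NuTRAP mice the sum was 11706 ± 1092 (SD, n = 6) in input, 13858 ± 2835 (n = 6) in the negative fraction, 14047.5 ± 2135 (n = 6) in the positive fraction and 12426 ± 628 (n = 5) in whole tissue. Those 4 groups overlapped, and their sums lay below all 3 Aldh1l1-NuTRAP positive libraries except for the Cx3cr1-NuTRAP negative library of mouse 155. As a share of all counts, the members took 1.47% to 2.84% in the Aldh1l1-NuTRAP positive fraction and 1.12% to 1.97% in all other groups.

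**Figure D1:**
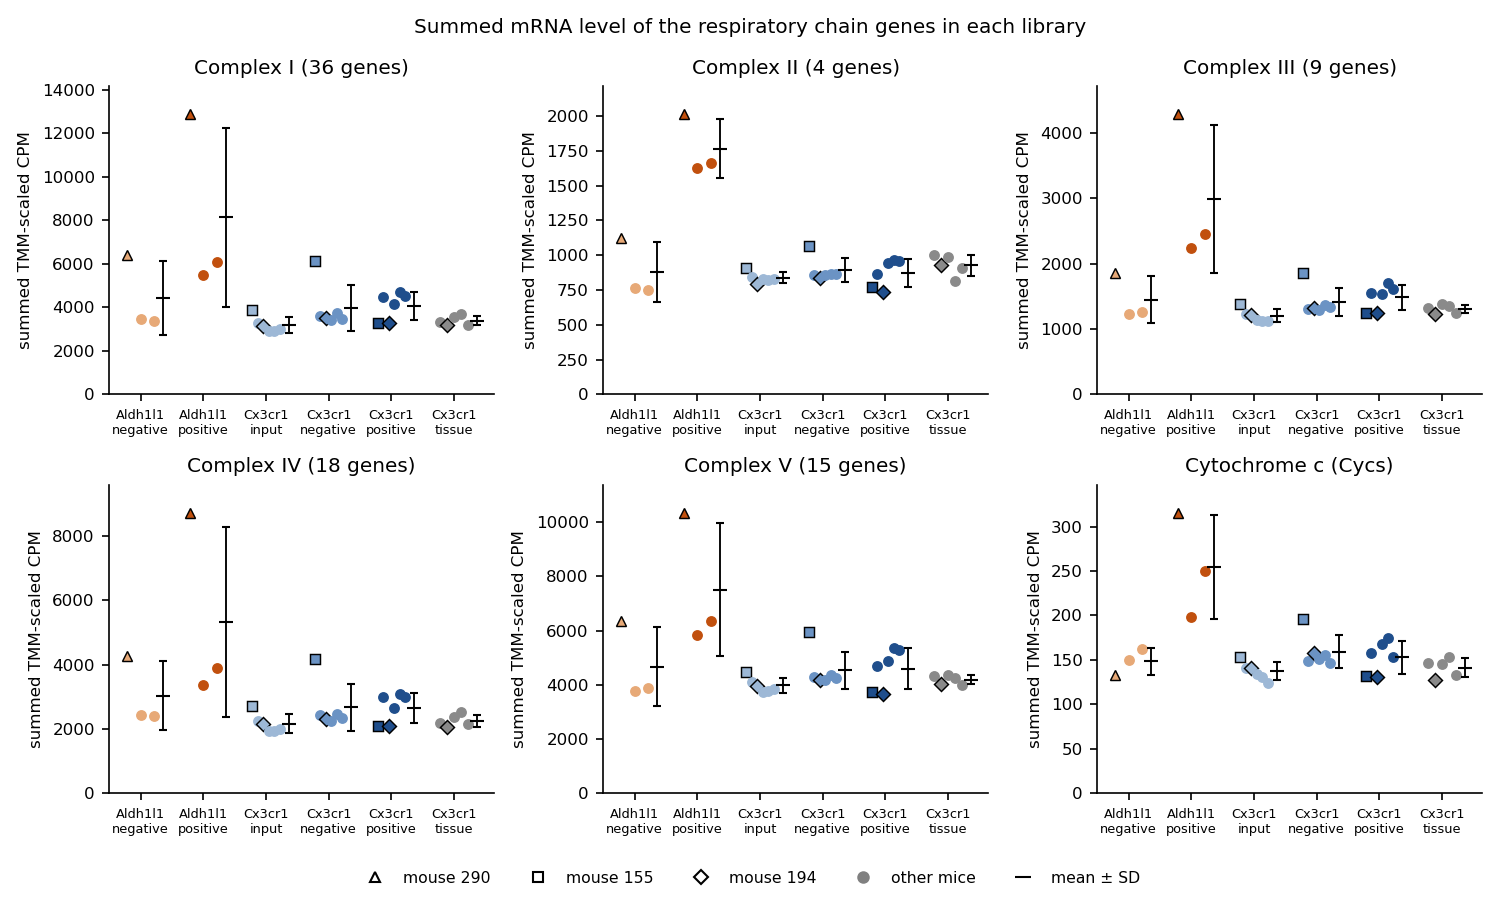
Summed TMM-scaled CPM (vertical axes, linear from 0) of the genes of complexes I to V and of cytochrome c, one panel each, in every library by group (horizontal axis). Points are mice, with mice 290, 155 and 194 drawn as triangles, squares and diamonds, and bars are means ± 1 SD; for complex I the Aldh1l1-NuTRAP positive library of mouse 290 lies at 12886 and the Cx3cr1-NuTRAP negative library of mouse 155 at 6121, above the others of their groups.

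Libraries of 3 mice stood apart in the members' sums. Mouse 290 had the highest sum of both Aldh1l1-NuTRAP fractions. Mouse 155 had the highest Cx3cr1-NuTRAP input (13740, others 10867 to 12032) and negative fraction (19612, others 12347 to 13202), while its positive fraction (11452) and that of mouse 194 (11346) lay below the other 4 (14547 to 16221). The shift went in part with transcript length. Members are short, with merged exons of 1021 bases at the median (360 to 4912), against 3445 bases for all genes past the filter with a length in the annotation. In the positive fraction of mouse 290, the median log2 ratio to the other mice of the group was 1.48 for members under 700 bases and 1.24 for other genes of that length, and it was 0.47 and -0.12 for members and other genes of 1500 bases or more. In the negative fraction of mouse 155 the same medians were 0.94 and 0.68 for the shortest class and 0.36 and -0.04 for the longest. In the positive fractions of mice 155 and 194, against the other 4, the shortest members stood at -0.58 and -0.505 and other genes of that length at -0.43 and -0.34. In the longest class members stood at -0.32 and -0.36 and other genes at 0.03 in both. Short genes of any function thus stood apart in these libraries together with the members, while long members also shifted where other long genes shifted little. The main counts of calls that rest on these libraries are given with and without them.

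In Aldh1l1-NuTRAP mice, the positive fraction asks which transcripts astrocyte ribosomes held relative to the unbound RNA of the same brain. The respiratory chain lay on the higher side: 87 of 91 members had a log2 fold change above 0, with a median of 0.80, against 0.04 over all 13319 genes tested. By edgeR's quasi-likelihood test 33 members were higher and 1 was lower at an adjusted p under 0.05, where 26.8% of all genes tested were called higher and 24.8% lower. The count higher includes Cox8b and Cox4i2, which passed the filter only in the positive fraction. The 1 lower was Cox6a2, which passed it only in the negative fraction. Within mice, the members' median log2 ratio minus that of all genes was 0.93 in mouse 290, 0.52 in mouse 293 and 0.72 in mouse 294, and 83 of 91 members were higher in all 3 mice. The number called depended on the mice and on the pairing. It was 78 higher and 1 lower without mouse 290, 12 and 0 without mouse 293 and 8 and 1 without mouse 294, and with the mouse as a block 80 were higher and 1 lower. Over all genes the calls moved in the same settings, from 3569 higher and 3299 lower to 4887 and 4844 without mouse 290, 1977 and 1685 without mouse 293, 1987 and 1600 without mouse 294, and 4927 and 4503 with the block. With total counts in place of TMM scaling, the median of all genes moved to -0.31 and that of the members to 0.45, with 15 members higher and 1 lower, and over all genes 2436 were higher and 4824 lower in place of 3569 and 3299. In the longest class of 1500 bases or more, the members' median was 0.62 and that of other genes -0.04, while from 700 to under 1000 bases members (0.82) and other genes (0.81) were close. In bulk fractions such as these, fewer cells of a type and less RNA per cell cannot be told apart.

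**Figure D2:**
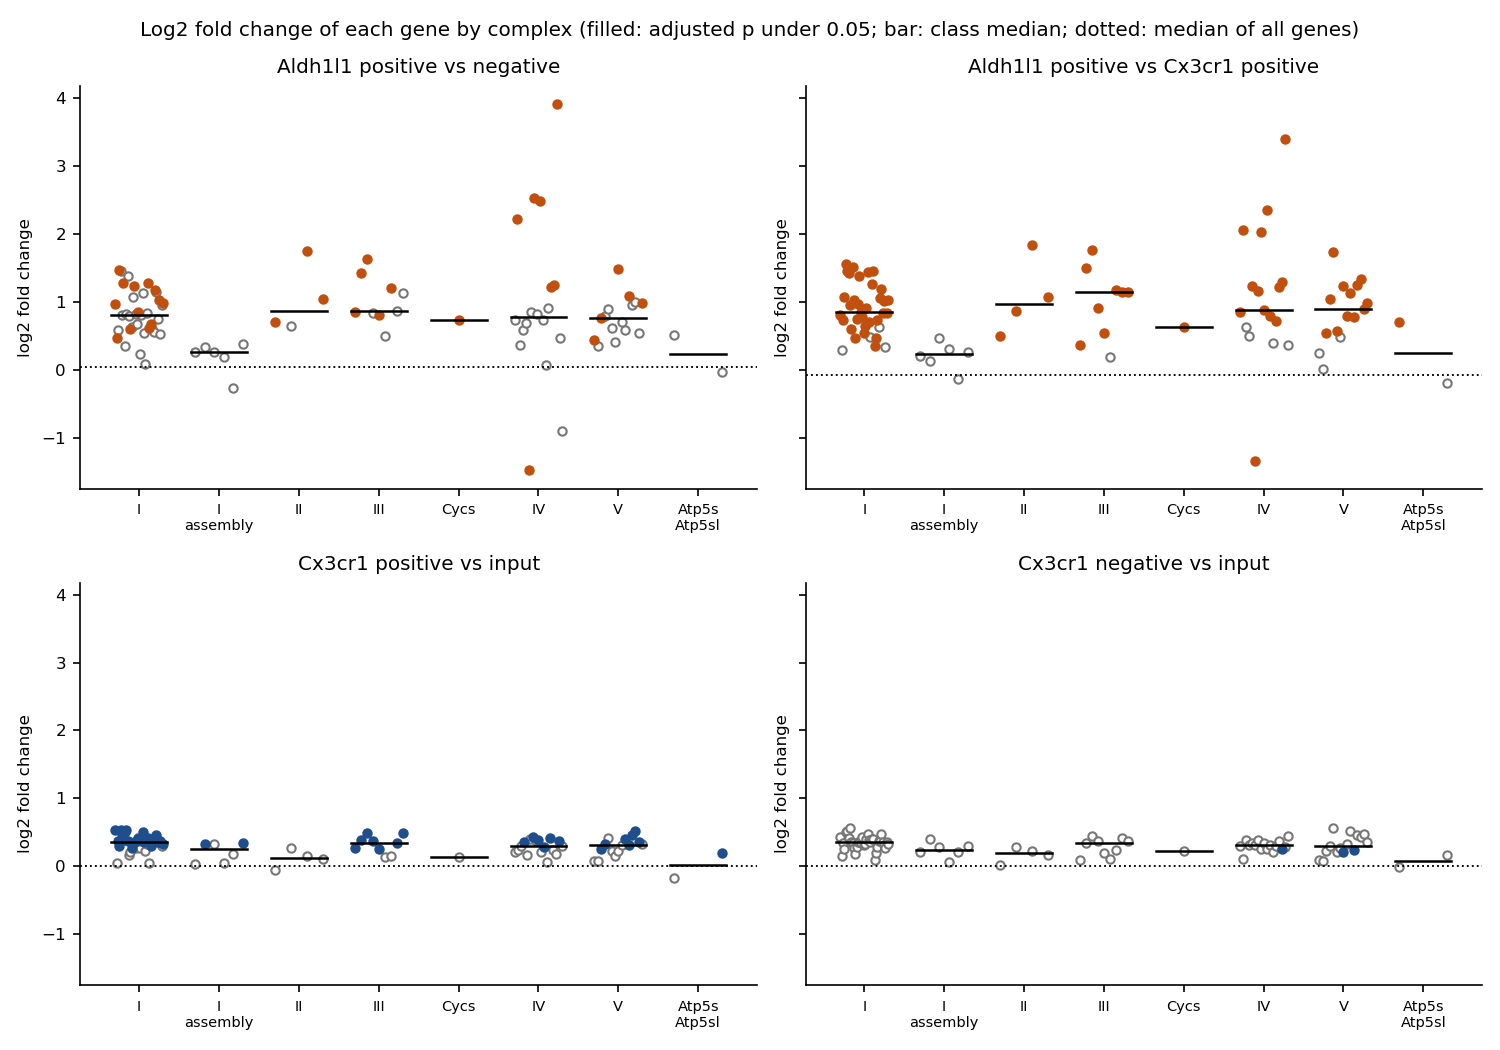
Log2 fold change of each member (vertical axis) by complex (horizontal axis) in 4 comparisons, one panel each. Each point is 1 gene, filled where the adjusted p was under 0.05, bars are class medians and the dotted line is the median of all genes tested; in the Aldh1l1-NuTRAP positive against negative fraction Cox8b lies at 3.91 and Cox6a2 at -1.48, while both Cx3cr1-NuTRAP panels stay close to 0.33 and 0.32 at the median.

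Complex II showed the most even result. Sdhc, a membrane anchor of succinate dehydrogenase, stood at 605, 442 and 456 scaled CPM in the positive fraction and 189, 121 and 121 in the negative fraction of mice 290, 293 and 294. The groups did not overlap, and the log2 fold change was 1.76 (SE 0.23, adjusted p = 0.000736). Sdhd, the other anchor, rose by 1.04 (SE 0.22, adjusted p = 0.00604). The flavoprotein Sdha, which oxidizes succinate, stood at 719, 792 and 792 in the positive fraction and 534, 432 and 409 in the negative fraction. Here mouse 290 did not stand above the others in the positive fraction, and the log2 fold change was 0.70 (SE 0.16, adjusted p = 0.00759). The iron-sulfur protein Sdhb was higher in each of 3 mice, but its groups overlapped (0.64, SE 0.39, adjusted p = 0.208), and it passed with the mouse as a block (adjusted p = 0.00018). Thus 3 of 4 genes of complex II were called, and 4 of 4 with the block.

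In complex I, 13 of 36 genes were called higher and none lower, with a median of 0.81. With the mouse as a block 35 of 36 were called, as they were without mouse 290, and with total counts only 1. The largest call was Ndufa12, an accessory subunit, at 248, 148 and 158 scaled CPM against 49.8, 75.1 and 67.9 (log2 1.47, SE 0.25, adjusted p = 0.00255). Among the nuclear-encoded core subunits, Ndufs1 rose by 0.62 (SE 0.14, adjusted p = 0.00761) and Ndufs8 by 1.03 (adjusted p = 0.015). Ndufs1 was steady between mice, with 260, 246 and 258 in the positive fraction and 174.5, 153 and 153 in the negative fraction. Ndufv1, Ndufv2, Ndufs3 and Ndufs7 had values of 0.53, 0.96, 0.60 and 0.75 and did not pass (adjusted p = 0.164, 0.0702, 0.258 and 0.142), and all 4 passed with the block (adjusted p = 0.000652, 0.000254, 0.000269 and 5.22e-05). Ndufs7 shows the spread behind this: 326, 154 and 172 scaled CPM in the positive fraction and 192, 88.2 and 93 in the negative fraction, so that mouse 290 alone made the groups overlap. Ndufb9 was the exception, with 413, 147 and 179 against 353, 162.5 and 158, a log2 fold change of 0.08 (SE 0.46) and an adjusted p of 0.76 even with the block.

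In complex III, 5 of 9 genes were called higher, and 9 of 9 with the block or without mouse 290. Cyc1, the cytochrome c1 that hands electrons to cytochrome c, was the most even member, at 276, 272 and 290 against 143, 156 and 151 scaled CPM (log2 0.85, SE 0.14, adjusted p = 0.0018). The Rieske iron-sulfur protein Uqcrfs1 rose by 1.2 (SE 0.29, adjusted p = 0.0111) and the core protein Uqcrc1 by 0.80 (SE 0.16, adjusted p = 0.00441). Uqcr11, a small accessory subunit, stood at 616, 229 and 251 against 162, 87.4 and 90.7 (1.64, SE 0.43, adjusted p = 0.0152). The other core protein, Uqcrc2, had a value of 0.49 (adjusted p = 0.0546) and passed with the block (adjusted p = 0.0013). Cycs itself, at 315, 198.5 and 250 against 133, 149 and 162.5, rose by 0.73 (SE 0.20, adjusted p = 0.0175), and by 0.45 without mouse 290 (adjusted p = 0.00653).

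Complex IV held the largest changes and the only member called lower, all of them in paralogs of low level. Cox8b stood at 24.7, 3.88 and 4.26 scaled CPM in the positive fraction (215, 63 and 74 counts) and 1.41, 0.66 and 0.23 in the negative fraction (12, 17 and 5 counts) of mice 290, 293 and 294. Its log2 fold change was 3.91 (SE 0.95), and the 3 values of each group did not overlap. Cox6b2 rose by 2.54 (SE 0.47, adjusted p = 0.00336), with 197, 175 and 259 counts against 39, 61 and 30. Cox7a1 rose by 2.49 (SE 0.66, adjusted p = 0.0164), with 275, 120 and 160 counts against 40, 39 and 50. Cox4i2 had a value of 2.22 (SE 0.40), with 129, 116 and 141 counts against 10, 55 and 56. Cox6a2 had a value of -1.48 (SE 0.32), with 20, 32 and 27 counts against 55, 140 and 80, and was lower in each of 3 mice. Cox8b and Cox4i2 exceeded the count filter in the positive fraction only and so entered the test through the group in which they were high, and their values here are a description. Cox6a2, with 20 counts in the positive fraction of mouse 290, entered through the negative fraction only, where it was high. Its value is likewise a description. Without mouse 290 Cox6a2 exceeded the filter in both fractions and was called lower. These 5 values rest on 5 to 275 counts per library. With genes under 100 counts left out none of the members was called lower, and Cox6a2 also did not pass without mouse 293.

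The common partners of these paralogs moved less. Cox4i1, the most abundant member per kilobase in its complex, had a value of 0.73 (adjusted p = 0.199), with 1826, 640 and 724.5 against 895, 482 and 480 scaled CPM. Cox8a was called at 1.25 (SE 0.23, adjusted p = 0.00322), with 911, 510 and 564 against 257, 266 and 282. Cox6a1, Cox6b1 and Cox7a2 had values of 0.69, 0.85 and 0.74 and did not pass (adjusted p = 0.295, 0.209 and 0.123). Each of these 3 and Cox4i1 passed with the block (adjusted p = 0.000517, 6.55e-05, 0.000684 and 0.00116). The subunits Cox5a and Cox5b had values of 0.37 and 0.58, again only called with the block (adjusted p = 0.00433 and 0.00689). Ndufa4, once assigned to complex I, had a value of 0.46 (adjusted p = 0.298, with the block 0.0462), and its paralog Ndufa4l2 one of -0.90 (adjusted p = 0.155, with the block 0.0793). In all, 6 of 18 genes of complex IV were called higher and 1 lower, 15 and 1 with the block and 14 and 1 without mouse 290, where the median of the complex went from 0.78 to 0.49. These counts include Cox8b and Cox4i2, and Cox6a2 as the 1 lower. With all mice the filter admitted these genes only through the group where they are high. Striated muscle markers summed to 4.15 to 8.74 scaled CPM in the positive and 8.36 to 9.20 in the negative fraction, and markers of mural cells, where Cox4i2 is known to be expressed, to 116 to 139 against 103 to 125. Parvalbumin (Pvalb), the marker of an interneuron type known to express Cox6a2, stood at 234, 38.1 and 103 against 491, 105 and 188. Their part in these results was not tested.

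In complex V, 5 of 15 genes were called higher, with a median of 0.76, 15 of 15 with the block and 14 of 15 without mouse 290. Atp5g2, 1 of 3 genes for the membrane ring subunit c, stood at 242, 165.5 and 182 scaled CPM against 51.1, 75.9 and 75 (log2 1.49, SE 0.22, adjusted p = 0.00135). Atp5j, a coupling factor of the stalk, rose by 1.09 (SE 0.18, adjusted p = 0.00183). Of the catalytic head, Atp5a1 (alpha) rose by 0.44 (SE 0.14, adjusted p = 0.0351) and Atp5c1 (gamma) by 0.76 (SE 0.23, adjusted p = 0.0283). Atp5b (beta) had a value of 0.35 (SE 0.14, adjusted p = 0.0672), which passed with the block (adjusted p = 0.0128). Atp5b stood at 1489, 1379 and 1463 in the positive and 1250, 997 and 1030 in the negative fraction, so its groups did not overlap. Across the chain, 12 of the 21 core or catalytic subunits were called higher and none lower, with a median of 0.70, and 21 of 21 were higher with the block or without mouse 290.

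The 6 complex I assembly factors, which are not part of the finished enzyme, did not pass the test. Their median was 0.26, with 0 called by edgeR, 0 with the block and 0 without mouse 290, and with total counts the median lay at -0.09. Atp5s and Atp5sl were also not called (0.51, adjusted p = 0.0551, and -0.04, adjusted p = 0.856), and Atp5s passed with the block (adjusted p = 0.0101). The lists beyond the members are set beside the 26.8% of all genes called higher and the 24.8% called lower in this comparison. Of 34 other assembly factors tested, 9 were higher and 2 lower (median 0.43). Of 76 proteins of the mitochondrial ribosome, 28 were higher and none lower (median 0.64), and their sum also stood apart in mouse 290 (6571, others 3571 and 3857). Of 14 Krebs cycle enzymes, 8 were higher and none lower (median 0.51), with a sum of 4590, 4732 and 4777 against 2671, 2548 and 2607 that did not set mouse 290 apart. The largest of these were Suclg2, the GTP-forming subunit of the enzyme just before complex II in the cycle (3.25, SE 0.20, adjusted p = 5.17e-05), and Idh2, which makes NADPH (2.74, SE 0.16, adjusted p = 4.51e-05). Of 11 regulators of mitochondrial biogenesis, 4 were higher and 1 lower (median 0.41). Those higher were Gabpa (1.09, adjusted p = 0.00154), Esrra (0.97, adjusted p = 0.0182), Tfb2m (0.59, adjusted p = 0.0216) and Ppargc1a (0.53, adjusted p = 0.047), Gabpb1 fell by 0.71 (adjusted p = 0.00987), and Nrf1 had a value of 0.14 (adjusted p = 0.521).

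Members with and without the CGCATGCG motif are set side by side as a description. In the Aldh1l1-NuTRAP comparison 5 of 12 members with the motif were called higher (median 0.76), and 22 of 63 members with an entry without it (median 0.82). In the Cx3cr1-NuTRAP positive fraction against input the counts were 6 of 12 (0.24) and 36 of 62 (0.33). Of the genes printed, Cycs, Uqcrc1, Atp5g2 and Cox7a1 were called higher in the Aldh1l1-NuTRAP comparison and Cox6a1 was not without the block. Cox8b, admitted by the filter through the positive fraction only, is also among the 22.

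In Cx3cr1-NuTRAP mice, the positive fraction against input asks what ribosomes of microglia held relative to the homogenate they came from. Members lay slightly higher: 88 of 90 tested had a value above 0, with a median of 0.33 against -0.00 for all 13838 genes. By edgeR 49 were called higher and 0 lower, where 23.3% of all genes were called higher and 25.6% lower. No member was lower at an unadjusted p under 0.05 or by DESeq2. The mice were not alike. The members' median log2 ratio minus that of all genes was -0.27 in mouse 155 and 0.03 in mouse 194, and 0.36, 0.52, 0.75 and 0.62 in mice 192, 209, 210 and 277, so that only 5 of 90 members were higher in all 6 mice. The number called was 74 without mouse 155, 63 without mouse 194, 28 without mouse 192, 16 without mouse 209, 13 without mouse 210 and 11 without mouse 277, and 17 with the mouse as a block. Without mice 155 and 194, an alternative added after the data were seen, it was 83. Over all genes, 3218 higher and 3546 lower became 2528 to 3303 higher and 2603 to 3592 lower with 1 mouse left out, 2625 and 3310 with the block, and 3888 and 3668 without mice 155 and 194. Members of 1500 bases or more had a median of 0.22 against -0.06 for other genes of that length, while under 700 bases members (0.38) and other genes (0.35) were close.

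**Figure D3:**
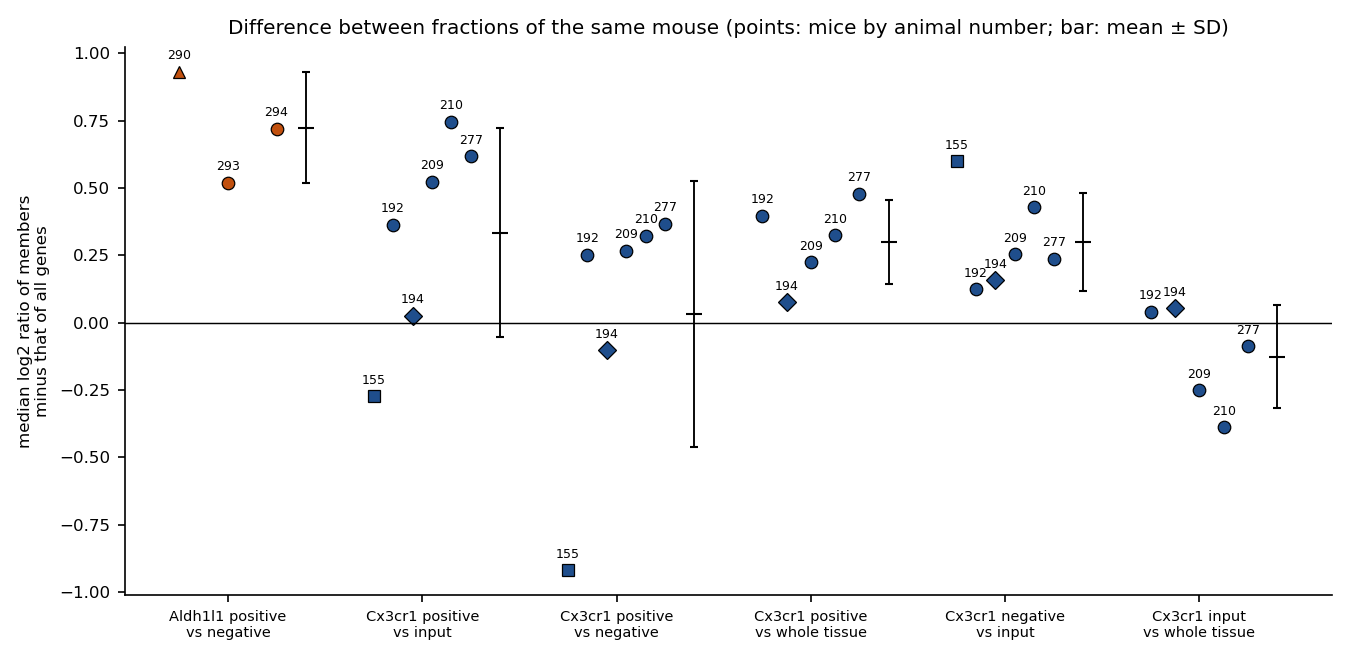
Median log2 ratio of the members minus that of all genes tested (vertical axis) between fractions of the same mouse, by comparison (horizontal axis). Each point is 1 mouse with its animal number, and bars are means ± 1 SD; in the Cx3cr1-NuTRAP positive fraction against input mouse 155 lies at -0.27 and mouse 210 at 0.75, while the 3 Aldh1l1-NuTRAP mice lie between 0.52 and 0.93.

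By complex, 26 of 36 genes of complex I were called higher in the Cx3cr1-NuTRAP positive fraction against input, 7 of 9 of complex III, 7 of 15 of complex V, 6 of 17 of complex IV, 2 of 6 assembly factors and 0 of 4 of complex II. With the mouse as a block these were 10 of 36, 3 of 9, 2 of 15, 0 of 17, 1 of 6 and 0 of 4. The 0 of complex II became 2 of 4 without mouse 155 and 3 of 4 without mice 155 and 194. Cyc1 was the steadiest member, with values of 189 to 219 (median 202) in the positive fraction and 156.5 to 177 (median 164) in input. It was higher in 6 of 6 mice, with a log2 fold change of 0.27 (SE 0.06, adjusted p = 0.00241), and its groups did not overlap. Ndufa1, a small membrane subunit, had the largest value among the calls that held in 6 of 6 mice (0.53, SE 0.11, adjusted p = 0.00145), with 54.5 to 84.7 against 41.5 to 54.7. Ndufv1, the flavin subunit at which NADH enters, rose by 0.37 (SE 0.09, adjusted p = 0.00298). The catalytic subunits Sdha, Atp5a1 and Atp5b had values of -0.05, 0.07 and 0.08 and did not pass (adjusted p = 0.594, 0.601 and 0.529). Of the 21 core subunits, 9 were called, and 3 with the block. The low-level paralogs Cox4i2, Cox6a2, Cox6b2 and Cox7a1 had values of 0.24, 0.41, 0.37 and 0.21 (adjusted p = 0.43, 0.0699, 0.0939 and 0.516), and Cox8b was under the count filter. Markers of other cells moved here too: Pvalb was higher in the positive fraction (191 to 297 against 139 to 199 scaled CPM, log2 0.62, adjusted p = 0.000578), as were 3 of 5 endothelial markers (71.5 to 159 against 74.4 to 89.2 summed). Of the 8 neuronal markers 1 was lower and 0 higher (median -0.03). In mouse 194 the microglial markers had the highest sum of the group (6986, others 2767 to 4493), and the oligodendrocyte markers the lowest (1339, others 2717 to 3312). Their part in the result was not tested.

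The unbound RNA was compared with input as the background of the pulldown. Members lay higher in the negative fraction as well: 89 of 90 had a value above 0, with a median of 0.32 against 0.00 for all genes. Only 3 passed the edgeR test and 0 were lower, where 1.41% of all genes were called higher and 4.7% lower, and 63 members were higher and 0 lower at an unadjusted p under 0.05. The 3 were Cox8a (0.26, adjusted p = 0.0476), Atp5j (0.25, adjusted p = 0.0491) and Atp5g2 (0.21, adjusted p = 0.0478), each higher in 6 of 6 mice. The comparison turned on mouse 155 and on the pairing. Without mouse 155 there were 77 members higher, without any other single mouse (192, 194, 209, 210 or 277) there were 0, and with the mouse as a block there were 78, or 79 with the block and without mouse 155. Over all genes, 194 higher and 646 lower became 1774 and 2041 without mouse 155, 0 to 3 higher and 0 lower without any other single mouse, and 2431 and 2684 with the block. Within mice the members' median minus that of all genes was 0.12 to 0.43 in 5 mice and 0.60 in mouse 155, and 74 of 90 members were higher in 6 of 6 mice. The DESeq2 test called 18 members higher, with 766 of all genes higher and 1290 lower. EdgeR called 0 members with total counts or without the filter. Over all genes it called 150 higher and 499 lower with total counts, and 53 and 228 without the filter. Members under 700 bases had a median of 0.39 and other genes of that length one of 0.33, against 0.21 and -0.02 for the longest class.

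**Figure D4:**
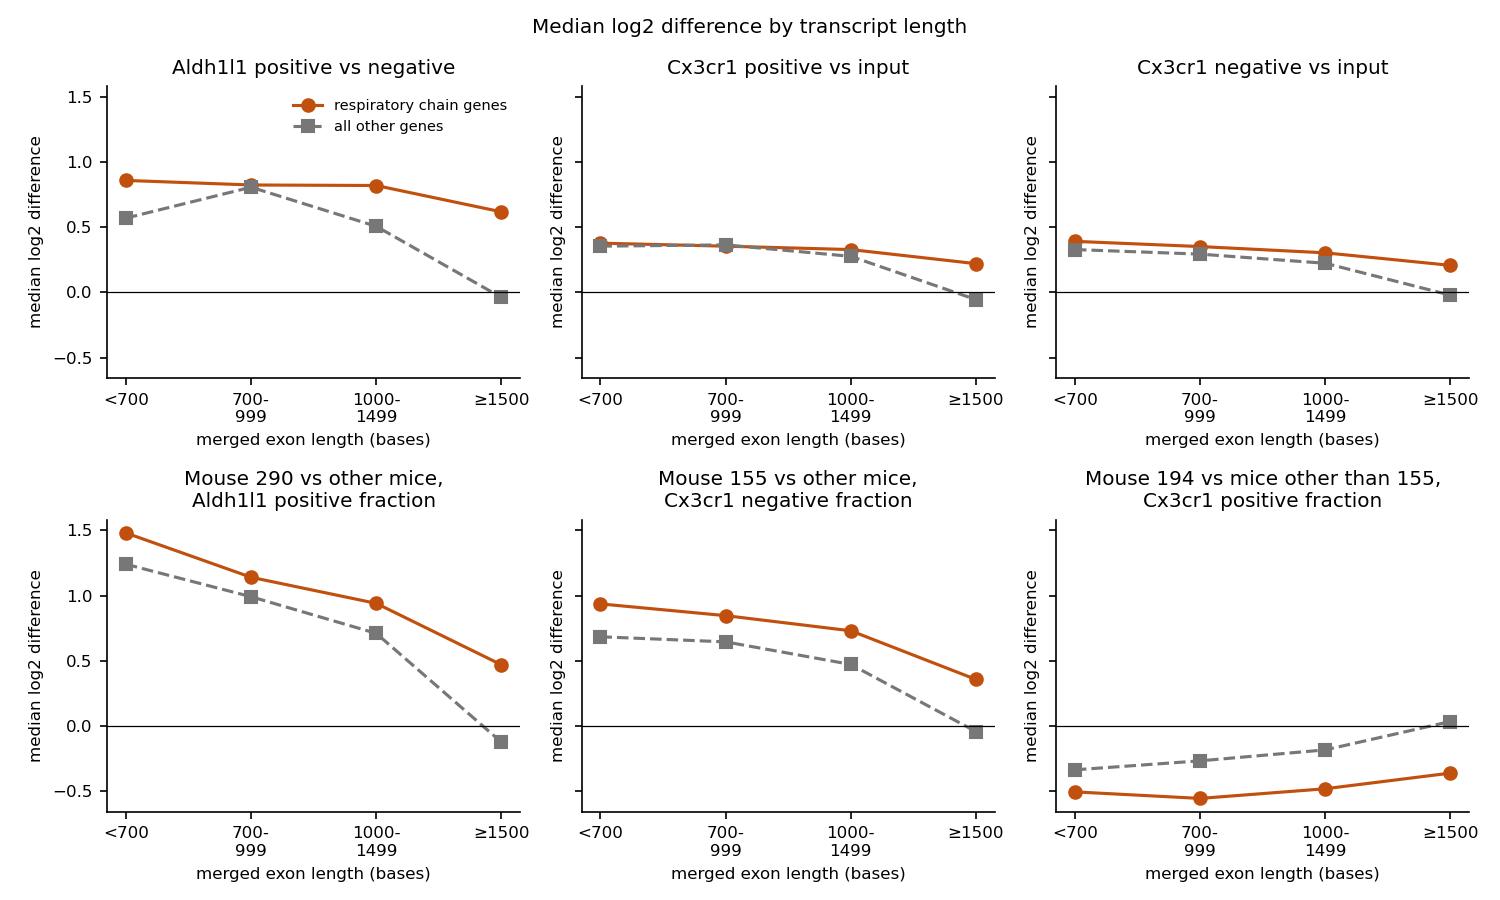
Median log2 difference (vertical axis) of respiratory chain genes (circles) and of all other genes (squares) in 4 classes of merged exon length in bases (horizontal axis). The upper panels show 3 comparisons of fractions and the lower panels single libraries against other mice of their group; in the Cx3cr1-NuTRAP negative fraction against input the members go from 0.39 in the shortest to 0.21 in the longest class and other genes from 0.33 to -0.02.

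Set against that unbound RNA, the members of the microglial positive fraction lay close to 0. The median over 90 members was 0.02 against -0.02 for all genes, with 50 above 0, and the range was -0.16 to 0.20. By edgeR 0 were called higher and 0 lower, where 12.8% of all genes were called higher and 11.6% lower. At an unadjusted p under 0.05 there was 1 higher and 0 lower. The DESeq2 test called 1 member higher and 0 lower, with 2087 of all genes higher and 1972 lower. The exception at the unadjusted level was Cyc1, with 189 to 219 scaled CPM in the positive and 158 to 188 in the negative fraction, higher in 6 of 6 mice (0.20, SE 0.07, adjusted p = 0.0506). Here too mouse 155 stood apart, with a members' median minus that of all genes of -0.92, against -0.10 in mouse 194 and 0.25 to 0.37 in the other 4. Without mouse 155 there were 21 members called higher, 11 of them in complex I and 3 each in complexes III and IV, and with the block as well there were 22. Over all genes 1759 higher and 1593 lower became 2090 and 2183 without mouse 155, and 1902 and 2134 with the block as well.

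Whole tissue RNA was isolated conventionally, without the pulldown. Against it, the Cx3cr1-NuTRAP positive fraction had 41 of 88 tested members higher and 1 lower, with a median of 0.27 against 0.05 for all genes, and 27.5% of all genes called higher and 24.3% lower. The members' median minus that of all genes was between 0.08 (mouse 194) and 0.48 (mouse 277) in the 5 mice. By length, members and other genes had medians of 0.40 and 0.35 under 700 bases, 0.32 and 0.36 from 700 to under 1000, 0.20 and 0.315 from 1000 to under 1500, and 0.16 and 0.00 from 1500 bases, so that members lay below other genes of their length in both middle classes. There were 10 calls higher without mouse 192 and 12 without mouse 277, and 2 lower without mouse 210. Over all genes 3705 higher and 3279 lower became 2527 and 2521 without mouse 192, 2872 and 2739 without mouse 277, and 3873 and 3776 without mouse 210. Complex I accounted for 20 of the 41, complexes IV and V for 7 each and complex III for 5, where the 7 of complex IV include Cox6b2 and Cox6a2, admitted by the filter through the positive fraction only. The largest were Cox6b2 (0.71), Ndufa5 (0.63, adjusted p = 0.00644), Atp5k (0.59, adjusted p = 0.00377), Ndufa13, which is also known as Grim19 (0.58, adjusted p = 0.00389), and Cox6a2 (0.57). Each was higher in 5 of 5 mice. Cox6b2 and Cox6a2 were under the filter in whole tissue (14 and 16 counts in mouse 210), so their values are a description. The member that fell was Atp5s, a factor associated with the enzyme (-0.43, adjusted p = 0.00518), at 10.2 to 13.7 scaled CPM against 14.8 to 17.5, without overlap. Of the 21 core subunits 6 were called higher, Ndufs7 (0.42, adjusted p = 0.0125), Sdhb (0.36, adjusted p = 0.0158), Ndufs3 (0.35, adjusted p = 0.0185), Cox5b (0.31, adjusted p = 0.0386), Ndufv1 (0.28, adjusted p = 0.0144) and Cyc1 (0.18, adjusted p = 0.0438), and 0 lower. Among those not called, Sdha, Ndufs1 and Atp5b had values of -0.24, -0.12 and -0.04 (adjusted p = 0.0609, 0.247 and 0.788). Whole tissue of mouse 210 had a total of 4260795 counts, and its Cox4i2 and Cox7a1 counts were both 12. Cell type markers moved as well: 8 of 8 microglial markers were higher (median 3.60) and so were Pvalb (1.07, adjusted p = 0.00212) and 3 of 8 neuronal markers with 1 lower, while 6 of 6 oligodendrocyte (median -1.24), 7 of 8 astrocyte (-0.46), 3 of 5 endothelial (-0.53), 3 of 5 mural (-0.96) and 3 of 3 ependymal markers were lower. Their part in the result was not tested.

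Input, from the cleared homogenate, was also compared with whole tissue, whose titles name a slice and may stand for another piece of the brain. Here 0 of 90 members were higher and 8 lower by edgeR, with a median of -0.04 and with 16.3% of all genes called higher and 14.2% lower. No member was higher at an unadjusted p under 0.05 or by DESeq2. The 8 included 5 of the 21 core subunits: Sdha (-0.20, adjusted p = 0.0339), Uqcrc1 (-0.19, adjusted p = 0.026), Ndufs1 (-0.18, adjusted p = 0.0423), Uqcrc2 (-0.17, adjusted p = 0.02) and Atp5b (-0.13, adjusted p = 0.0455). The other 3 were Ndufa4l2 (-0.49, adjusted p = 0.0438), Ndufaf2 (-0.31, adjusted p = 0.0361) and Atp5s (-0.26, adjusted p = 0.0385). Sdha stood at 488 to 530 scaled CPM in input and 481 to 668 in whole tissue, where mouse 210 (481) was the only whole-tissue library below the others (593 to 668). The count of members lower was 14 without mouse 155, 2 without mouse 192, 1 without mouse 194, 0 without mouse 209 and 1 without mouse 277, 2 were higher without mouse 210, and 4 were lower with the mouse as a block. Over all genes 2217 higher and 1927 lower became 1270 to 2697 and 1190 to 2698 with 1 mouse left out, and 1782 and 1309 with the block. Oligodendrocyte markers summed to 6041 to 8444 in whole tissue and 4301 to 4785 in input, and 6 of 6 were lower in input (median -0.44). So were 5 of 5 endothelial (-1.27), 4 of 5 mural (-0.78), 3 of 3 ependymal (-0.93) and 3 of 8 astrocyte markers (-0.17), while 2 of 5 choroid plexus markers were higher, and of 8 neuronal markers 4 were higher and 2 lower. The part of these differences in the result was not tested.

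The positive fractions of both lines were compared directly, as astrocyte-tagged against microglia-tagged ribosomes. Of 90 members 70 were higher in the Aldh1l1-NuTRAP line and 1 lower, with a median of 0.84 against -0.08 for all genes, where 30.6% of all genes were called higher and 33.1% lower. By length, members and other genes had medians of 1.19 and 0.55 under 700 bases and 0.99 and 0.62 from 700 to under 1000. They were 0.86 and 0.395 from 1000 to under 1500 and 0.52 and -0.15 from 1500 bases. In 63 members all 3 Aldh1l1-NuTRAP libraries lay above all 6 Cx3cr1-NuTRAP libraries, and in 1 all lay below, where 31.0% of all genes lay all above and 25.7% all below. The size depended on mouse 290: without it the median was 0.39, with 44 members higher and 2 lower. Without mice 290, 155 and 194, an alternative added after the data were seen, it was 0.28, with 50 higher and 5 lower (Ndufaf5, Atp5sl, Cox6a2, Ndufa4l2 and Ndufb9). Over all genes 4188 higher and 4530 lower became 4052 and 4302, then 4444 and 4637. With total counts in place of TMM scaling 38 were higher and 3 lower, the median of all genes lay at -0.39 and that of the members at 0.51, and over all genes 2875 were higher and 6312 lower in place of 4188 and 4530.

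In complex II 4 of 4 genes were higher under TMM scaling, without mouse 290 and without mice 290, 155 and 194, and 3 of 4 with total counts. Its median was 0.96, below that of complex III (1.14). Sdhc stood at 605, 442 and 456 scaled CPM in the Aldh1l1-NuTRAP positive libraries and 101 to 149 (median 138) in the 6 Cx3cr1-NuTRAP positive libraries (log2 1.83, SE 0.15, adjusted p = 1.95e-06). Sdha stood at 719 to 792 against 431 to 560 (0.50, adjusted p = 0.004). Complex I had 32 of 36 genes higher, complex III 8 of 9, complex V 12 of 15 and complex IV 12 of 17 with 1 lower. Without mouse 290 these were 16 of 36, 6 of 9, 8 of 15 and 8 of 18 with 1 lower. Among the paralogs Cox7a1 was higher by 2.35 (adjusted p = 0.000838) and Cox6b2 by 2.03 (adjusted p = 4.51e-05). Over the alternative settings the Cox7a1 value ranged from 1.24 to 2.695. Cox8b and Cox4i2, at 3.39 and 2.06, were under the count filter in the Cx3cr1-NuTRAP positive fraction and entered the test only through the Aldh1l1-NuTRAP one, so their values are a description, although the counts above include them. Of the catalytic head of complex V, Atp5c1 was higher (0.54, SE 0.17, adjusted p = 0.0169), while 2 genes did not pass: Atp5b had a value of 0.02 (adjusted p = 0.93) with 1379 to 1489 against 1058 to 1547 scaled CPM, and Atp5a1 one of 0.25 (adjusted p = 0.172). None of the 6 assembly factors was called, with a median of 0.23 that turned to -0.09 with total counts (1 lower) or without mouse 290. Of the other lists, 43 of 76 mitochondrial ribosome genes, 10 of 14 Krebs cycle genes, 18 of 34 other assembly factors and 5 of 11 regulators were higher, and 0, 0, 2 and 2 lower. Over all genes 30.6% were called higher and 33.1% lower. Among cell type markers 8 of 8 astrocyte (median 3.19), 5 of 5 choroid plexus (2.38), 2 of 3 ependymal and 1 of 5 mural markers were higher, 8 of 8 microglial (-5.58), 8 of 8 neuronal (-1.44) and 1 of 5 endothelial markers and Pvalb (-1.11, adjusted p = 0.0357) were lower, and of 6 oligodendrocyte markers 1 was higher and 5 lower. Their part in the result was not tested.

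The unbound RNA of both lines served as the background of that comparison. Of 90 members 0 were higher and 0 lower by edgeR in the Aldh1l1-NuTRAP against the Cx3cr1-NuTRAP negative fraction, where 0.125% of all genes were called in each direction. At an unadjusted p under 0.05, 0 were higher and 6 lower (Ndufa10, Ndufs1, Sdha, Cyc1, Atp5b and Atp5j). The DESeq2 test called 0 members higher and 4 lower, with 256 of all genes higher and 261 lower. Without mouse 290 there were 2 lower, with 61 higher and 72 lower over all genes, and without mice 290 and 155, added after the data were seen, 11 lower, of which 10 were core subunits. In that last setting 866 of all genes were called higher and 757 lower, in place of 17 and 17. The median over the members was 0.09, -0.20 without mouse 290, 0.23 without mouse 155 and -0.04 without both.

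Whether the ratio of positive to negative fraction differed between the lines was tested as an interaction. It did so in 36 of 91 members towards the Aldh1l1-NuTRAP line and in 1 towards the Cx3cr1-NuTRAP line, where 25.5% and 29.9% of all genes were called, with a median of 0.71 against -0.11 for all genes. The counts were 46 and 1 with the mouse as a block and, without mice 290 and 155, 44 and 1 with a median of 0.41, while over all genes 3572 and 4179 became 3789 and 4326, then 3964 and 4197. With total counts they were 19 and 2, with medians of 0.43 for the members and -0.39 for all genes and with 2600 higher and 5719 lower in place of 3572 and 4179 over all genes. By complex, 16 of 36 genes of complex I, 3 of 4 of complex II, 5 of 9 of complex III, Cycs, 6 of 18 of complex IV and 4 of 15 of complex V differed towards the Aldh1l1-NuTRAP line. The largest were Cox8b (4.44), Cox7a1 (2.47, adjusted p = 0.00285), Cox6b2 (2.37, adjusted p = 9.62e-05), Cox4i2 (2.03, adjusted p = 0.00125) and Sdhc (1.77, adjusted p = 4.25e-06), and Cox6a2 differed the other way (-1.63, adjusted p = 0.00112). Of these, Cox8b exceeded the count filter only in the Aldh1l1-NuTRAP positive fraction, so its value is a description, although the 36 and the 6 of complex IV include it. By length, members and other genes had medians of 0.80 and 0.44 under 700 bases and 0.80 and 0.56 from 700 to under 1000. They were 0.72 and 0.31 from 1000 to under 1500 and 0.57 and -0.17 from 1500 bases. Neuronal markers had mean sums of 2533 scaled CPM in the positive and 7646 in the negative fraction of the Aldh1l1-NuTRAP line, and 6653 and 7367 in the Cx3cr1-NuTRAP line. Choroid plexus markers had 4102 and 564, and 736 and 1080. The part of these cells in the result was not tested.

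To put paralogs on one scale, each was expressed as its share of the counts per kilobase of its family. This share does not depend on library scaling. Cox7a1 made up 8.92%, 5.39% and 5.39% of Cox7a1 plus Cox7a2 in the Aldh1l1-NuTRAP positive fraction of mice 290, 293 and 294 and 2.89%, 1.53% and 2.31% in the negative fraction. Cox6b2 made up 1.93%, 2.87% and 3.43% of Cox6b1 plus Cox6b2 in the positive and 0.80%, 1.02% and 0.61% in the negative fraction. Both pairs thus kept the common paralog as the main one in every library. Cox8b made up 3.98%, 1.15% and 1.14% of its pair in the positive and 0.83%, 0.38% and 0.13% in the negative fraction, where mouse 290 was the highest of both. Cox4i2 went from 0.36% ± 0.21 to 0.98% ± 0.17 (SD, n = 3 mice), higher in 3 of 3 mice. Cox6a2 went the other way in 3 of 3 mice, at 0.18%, 0.49% and 0.35% of its pair in the positive and 0.95%, 1.86% and 1.33% in the negative fraction. In the subunit c family Atp5g2 made up 22.3%, 25.1% and 25% in the positive and 8.59%, 20.8% and 19.9% in the negative fraction. This scale divides Atp5g1 by merged exons of 4912 bases, where its shortest transcript has 596. In counts with no division by length, Atp5g3 took 63.6%, 63.1% and 62.7% of the family in the positive and 75.4%, 60.4% and 60.2% in the negative fraction, so that only mouse 290 was lower. Mouse 290 shifted most, and its negative library, with 8.59% Atp5g2, resembled that of mouse 155 (13.0%, other Cx3cr1-NuTRAP negative libraries 19.2% to 20.5%).

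**Figure D5:**
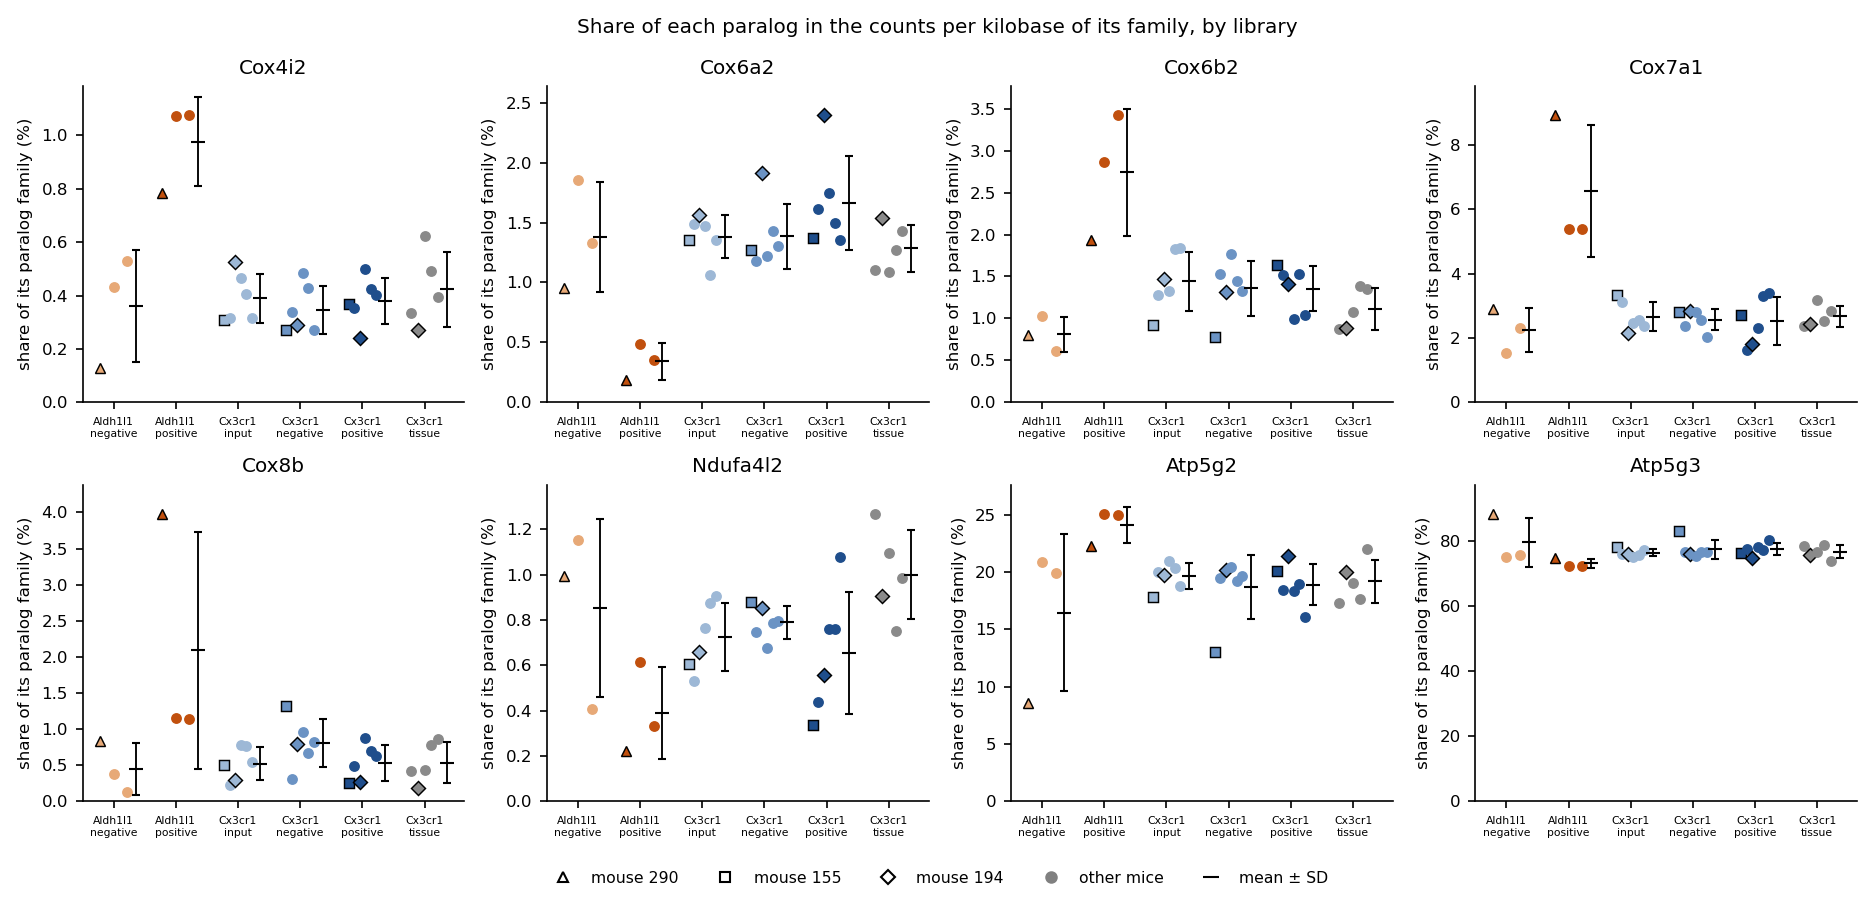
Share of Cox4i2, Cox6a2, Cox6b2, Cox7a1, Cox8b, Ndufa4l2, Atp5g2 and Atp5g3 in the counts per kilobase of their families (percent, vertical axes from 0), one panel each, in every library by group (horizontal axis). Points are mice, with mice 290, 155 and 194 drawn as triangles, squares and diamonds, and bars are means ± 1 SD; the Aldh1l1-NuTRAP positive libraries hold 5.39% to 8.92% Cox7a1 against 1.53% to 3.40% in all other libraries.

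With 3 pairs of libraries an exact permutation test cannot give a p under 0.25, and none of these shares could pass. Between the positive fractions of the lines, 8 shares per kilobase did not overlap. Of these Cox8b and Cox4i2 were under the count filter in the Cx3cr1-NuTRAP positive fraction and Cox6a2 in the Aldh1l1-NuTRAP one, and their shares are a description. The others were at the smallest exact permutation p that 3 against 6 mice allow (0.0238), and with adjustment over the 55 share tests none passed (adjusted p = 0.164). Of the 55 tests 6 were higher, Cox8b and Cox4i2 included, and 3 lower, Cox6a2 between the lines included, at an unadjusted p under 0.05. The means of Aldh1l1-NuTRAP against Cx3cr1-NuTRAP positive libraries were 6.57% against 2.53% for Cox7a1, 2.74% against 1.35% for Cox6b2, 2.09% against 0.54% for Cox8b (1.14% to 3.98% against 0.25% to 0.88% over mice), 0.98% against 0.38% for Cox4i2, 24.1% against 18.9% for Atp5g2, 2.72% against 3.63% for Atp5g1, 73.2% against 77.5% for Atp5g3 and 0.34% against 1.66% for Cox6a2. For Atp5g3 this rests on the lengths: in counts with no division by length its share was 62.7% to 63.6% against 61.4% to 67.1%, with overlap. That of Atp5g1 was then 14.8% to 17.3% against 19.4% to 21.8%, without overlap. Within Cx3cr1-NuTRAP mice the Cox6a2 share was 1.66% ± 0.39 in the positive and 1.39% ± 0.27 in the negative fraction (SD, n = 6), higher in 6 of 6 mice (exact permutation p = 0.03125, adjusted p = 0.191).

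Levels between genes were compared per kilobase of merged exons, as means over the 6 groups of scaled CPM per kilobase. The highest of each complex were Ndufb9 (256) in complex I, Sdha (194) in complex II, Uqcrh (418) in complex III, Cox4i1 (819) in complex IV and Atp5b (674) in complex V, and Cycs stood at 53.0. By this measure the lowest were Ndufab1 (13.3), Sdhc (60.2), Uqcrq (82.9), Ndufa4l2 (2.66) and Atp5g1 (22.2). The order rests on the annotation: merged exons are far longer than the shortest transcript in several members, among them Ndufb2 (4375 against 455 bases), Atp5g1 (4912 against 596), Uqcrq (1827 against 405) and Sdhc (3171 against 815) and Ndufab1 (4387 against 1416), which lowers their values. The assembly factors lay lower, from 33.4 (Ndufaf2) to 7.93 (Ndufaf6). In complex IV the 6 lowest of 18 were the tissue-type paralogs Cox7a1 (9.23), Cox8b (7.20), Cox6b2 (6.94), Cox6a2 (5.48), Cox4i2 (4.28) and Ndufa4l2.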

How the data were processed

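Polyadenylated RNA of 29 libraries was sequenced by the study as strand-specific libraries. Per the study's methods, the authors used Strand NGS to align trimmed reads to mm10, and per the file headers the genes are those of a RefSeq annotation. The deposited raw values are expected counts (82.8% of the nonzero values are not whole), which were rounded before the tests. The deposited log2 columns, which the authors made by DESeq normalization, were not used. Each library was 1 mouse fraction, grouped by the labels, and 0 columns lacked a sample. The members, gene lists and tests were chosen with earlier results of these data known.

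A gene was kept where all libraries of some group in the comparison exceeded 20 counts, after the study's own filter. Comparisons used TMM scaling and edgeR 4.0.16 in R 4.3.3 (limma 3.58.1), by its quasi-likelihood test, with Benjamini-Hochberg adjustment over all genes tested and a threshold of 0.05, and levels used Python 3.11.15 with pandas 2.3.3, numpy 2.4.6 and scipy 1.17.1. The test was checked on simulated counts. Comparisons between fractions were fitted without the mouse. Fractions with the same animal number in the labels come from the same mouse, so the fit with the mouse as a block is given where it changes a call. The deviations of same-numbered libraries correlated at 0.438 to 0.642 in the Aldh1l1-NuTRAP mice, at 0.0857 to 0.604 between Cx3cr1-NuTRAP negative fraction and input, and at -0.228 to 0.209 between its positive fraction and input. Paralog shares were compared by exact permutation tests (2-sided). Alternatives were DESeq2 1.42.0, other size factors, total counts, other filters, all groups in one fit and each mouse left out. Depth limits the precision of the low-level paralogs. Lengths are merged exons of the annotation, and promoters are from RefSeq (GRCm38.p6).

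Genes named in the text are the paralog families, up to 5 higher and 5 lower calls per comparison with the largest change that held in every mouse (or did not overlap between lines), 21 core or catalytic subunits, the highest and lowest member per kilobase of each complex, members called against the direction of their complex, and the assembly factors as a separate group. Ndufs7 as an example of spread, Pvalb and members listed by count were named after their values were seen. The values of 1 member are not reported here.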

Additional observations from a re-analysis of the deposited data

Results flagged for a closer look

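In groups of 4 to 10 libraries, the gap between the most extreme library and its nearest neighbour was compared with the range of the group by Dixon's criterion for 72 sets of values, of which 12 passed. Chance passes about 1 in 20. In the Cx3cr1-NuTRAP negative fraction mouse 155 was the highest for complex I (6121, others 3409 to 3761 summed scaled CPM), the complex I assembly factors (215, others 138 to 149), complex II (1064, others 834 to 865), complex III (1853, others 1296 to 1364), cytochrome c (196, others 146 to 158), complex IV (4165, others 2256 to 2475), complex V (5936, others 4177 to 4374) and all members (19612, others 12347 to 13202). In the same library the share of Atp5g2 was the lowest at 13.0% (others 19.2% to 20.5%) and that of Atp5g3 the highest at 83.2% (others 75.6% to 76.8%). In input, mouse 155 was the highest for complex I (3890, others 2921 to 3280). Mouse 194 had the highest share of Cox6a2 in the negative fraction, at 1.91% (others 1.18% to 1.43%).

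The ratio of positive to negative fraction differed between the lines by the interaction test in 36 members towards the Aldh1l1-NuTRAP line and 1 towards the Cx3cr1-NuTRAP line. The largest differences were those of Cox8b (4.44), Cox7a1 (2.47), Cox6b2 (2.37), Cox4i2 (2.03), Sdhc (1.77) and Cox6a2 (-1.63) on the log2 scale. Cox8b exceeded the count filter only in the Aldh1l1-NuTRAP positive fraction, and its value is a description. The line cannot be told apart from anything else that all mice of a line share.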

How the results depend on the processing

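The 134 gene results called were recomputed under the alternative settings, which gave 1917 values. Of these values 1589 kept their direction and their side of the threshold, and 327 kept their direction only. The 1 that reversed was Ndufa5 between the positive fractions, at -0.042 without mice 290, 155 and 194. Of the 134 results, 86 lost their call with their direction kept under at least 1 setting. All 133 recomputed values of 17 paralog share results kept their direction. The counts of members called moved as follows, and where no cause is named it was not tested. Settings that left out 2 or 3 mice, or combined the block with leaving out mouse 155, were chosen after the data were seen.

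Total counts gave 15 higher in the Aldh1l1-NuTRAP positive against negative fraction, 0 in the Cx3cr1-NuTRAP negative fraction against input, 38 higher and 3 lower between positive fractions, and 19 and 2 in the interaction. With all groups in one fit the counts were 65 higher and 2 lower (Aldh1l1-NuTRAP positive against negative), 20 (Cx3cr1-NuTRAP positive against input), 1 (positive against negative), 11 and 2 (positive against whole tissue), 0 (negative against input), 3 lower (input against whole tissue), 2 lower (between positive fractions) and 57 higher (interaction). The DESeq2 test gave 1 higher (Cx3cr1-NuTRAP positive against negative), 2 lower (positive against whole tissue), 18 higher (negative against input) and 4 lower (between negative fractions), and its size factors in edgeR 1 higher and 2 lower in the first pair of these. A minimum of 100 counts tested fewer genes and gave 0 lower for the Aldh1l1-NuTRAP fractions, between positive fractions and in the interaction, 1 higher in Cx3cr1-NuTRAP positive against negative and 2 lower against whole tissue. No filter gave 0 in negative fraction against input and 0 lower in input against whole tissue.

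With the mouse as a replicate block the counts were 80 (Aldh1l1-NuTRAP positive against negative), 17 (Cx3cr1-NuTRAP positive against input), 78 (negative against input) and 4 lower (input against whole tissue). It moved no other count of calls by more than 1.5 times. The block without mouse 155 gave 22 in Cx3cr1-NuTRAP positive against negative and 79 in negative against input. Without mice 155 and 194 the positive fraction against input gave 83. Without mice 290, 155 and 194 there were 5 lower between positive fractions, and without mice 290 and 155 there were 11 lower between negative fractions.

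With each mouse left out in turn, the members called higher ranged from 8 to 78 and lower from 0 to 1 (Aldh1l1-NuTRAP positive against negative), higher from 11 to 74 (Cx3cr1-NuTRAP positive against input), from 0 to 21 (positive against negative), from 10 to 52 with 1 to 2 lower (positive against whole tissue) and from 0 to 77 (negative against input). They ranged from 0 to 2 higher and 0 to 14 lower (input against whole tissue), 44 to 77 higher and 1 to 2 lower (between positive fractions) and 0 to 2 lower (between negative fractions). Depth limits Cox8b most, with 5 to 17 counts in the Aldh1l1-NuTRAP negative fraction.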
